A study of Mus musculus with 11 samples.

Results

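The immediate early and heat shock genes described here are 40 of the 27998 genes measured by droplet RNA sequencing in single macrophages (macs) of 5 mouse tissues. They were listed by name as genes that cells raise within minutes of stimulation or stress. They comprise 9 AP-1 and small MAF factors, 9 factors of the EGR, KLF and NR4A families with Csrnp1, 8 early response and RNA decay genes, 4 dual-specificity phosphatases, 4 genes of NF-kB and cytokine feedback, and 6 heat shock proteins. All 40 were found in the tables. Of these, 38 reached a mean of 20 CPM over the libraries, as did 5803 of all genes, while Mafk (mean 17.97 CPM) and Egr3 (mean 0.75 CPM) did not. CPM is the usual scaling of counts to a common library size, and the counts are UMIs (unique molecular identifiers), each marking 1 captured RNA molecule.

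Macs were sorted from the liver (Kupffer cells, KCs), lung (alveolar macs, AMs), spleen (SMs), colon (CMs) and brain (microglia). Each tissue gave 1 library from CRE-negative Zeb2fl/fl mice, called WT, and 1 from Zeb2fl/fl mice carrying a CRE recombinase, called Zeb2KO, and the liver gave a further CRE-negative library from Nr1h3fl/fl mice, for 11 libraries in all. The labels name Fcgr1-cre as the driver, which is also active in B cells, T cells and dendritic cells. The methods of the study also name Clec4f-cre for the liver and Itgax-cre for the lung, and which driver these libraries carry was not settled. The mice were untreated young C57Bl/6 animals of both sexes, and WT mice were littermates of the Zeb2KO mice. KCs were gated as Clec4F+, AMs as CD11c+SiglecF+ and microglia as CD45int, while CMs and SMs were gated by CD64 and F4/80 after exclusion of Ly6C+, Ly6G+ and SiglecF+ cells. Liver was digested with collagenase A, whereas lung, spleen and brain were digested with Liberase TM and for longer. Brain cells then passed over a percoll gradient. The study describes the colon isolation only by reference to earlier work. KC and AM libraries were read on a NextSeq500 and the others on a HiSeq. Digestion, sort and instrument were each fixed for a tissue, although some were shared between tissues. Their parts in a difference between tissues therefore cannot be told apart from that of the tissue.

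After filtering, 2830 to 6974 cells per library were kept as macs, with 8245033 (WT SMs) to 43038999 (WT CMs) UMIs per library and a median of 2223 to 9236 UMIs per cell. Kept clusters led by genes of another cell type held 14.3% of WT and 5.61% of Zeb2KO SMs (B cell genes such as Pax5, or neutrophil genes such as S100a8), 3.38% and 1.61% of KCs (endothelial genes such as Ptprb), and 3.67% and 0.308% of microglia (Pf4 and Lyz2). Without them the summed log2 ratio of Zeb2KO to WT given below was -0.67 in SMs and -0.19 in microglia. At most 76 cell barcodes were shared by any pair of libraries. At 20 CPM or more, the 95% Poisson interval of a member's level reached 2.65% (median) and at most 14.2% to either side, which covers counting error and not the spread between mice. Each tissue expressed its own marker list, although CM markers also summed to 6331 to 16820 CPM in KCs, 3176 and 9455 CPM in WT and Zeb2KO microglia and 5420 and 9426 CPM in SMs, and SM markers to 6024 to 9233 CPM in KCs. Zeb2 3′ reads were higher in the Zeb2KO than in the WT library of all 5 tissues (480.5 and 312.3 CPM in AMs, for example). Tags of the 3′ end, which a recombined allele keeps, do not check the deletion. The neutrophil list, which holds S100a8 and S100a9, summed to 23620 CPM in Zeb2KO AMs and 44.8 CPM in WT AMs, with 2 and 3 of its 7 genes at 0.

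Immediate early genes are transcribed without new protein synthesis once kinase signals reach factors already bound to their promoters. Many encode transcription factors such as Fos, Jun and Egr1, and others encode the brakes of the same response: dual-specificity phosphatases switch off MAP kinases, Zfp36 promotes the decay of cytokine mRNA, and Nfkbia and Tnfaip3 restrain NF-kB. Heat shock genes are switched on by Hsf1 when proteins misfold, and their products are chaperones. Both groups are also known to be raised by warm enzymatic digestion of tissue. Liver, lung, spleen and brain went through it, while the steps for the colon are not given. What digestion added to the levels of these genes was not tested.

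The promoter letters known for these responses were read in the 250 bases before the transcription start of each member with a window in the RefSeq promoter table used here, 34 of 40 (build GRCm38.p6). The windows of 5 genes are shown because they hold those letters for genes on which the results turn: Fos at chr12:85473640-85473889 (plus strand), Btg2 at chr1:134079156-134079405 (minus strand), Hspa1a at chr17:34972157-34972406 (minus strand), Hspa1b at chr17:34959239-34959488 (minus strand) and Hspb1 at chr5:135887669-135887918 (plus strand). Capitals mark the core cyclic AMP response element TGACGT and the TATA box TATAAA in Fos, the full cyclic AMP response element TGACGTCA in Btg2, and the heat shock element letters GAANNTTC in the 3 heat shock genes.
Fos: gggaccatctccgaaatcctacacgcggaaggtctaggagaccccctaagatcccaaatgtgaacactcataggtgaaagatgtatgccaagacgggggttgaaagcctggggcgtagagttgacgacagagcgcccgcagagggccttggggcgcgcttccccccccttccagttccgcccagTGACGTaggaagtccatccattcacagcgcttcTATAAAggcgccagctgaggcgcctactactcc
Btg2: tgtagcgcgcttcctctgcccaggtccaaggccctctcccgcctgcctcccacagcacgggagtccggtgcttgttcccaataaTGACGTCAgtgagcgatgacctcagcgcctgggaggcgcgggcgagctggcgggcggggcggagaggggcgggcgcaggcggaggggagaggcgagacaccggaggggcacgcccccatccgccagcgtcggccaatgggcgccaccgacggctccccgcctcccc
Hspa1a: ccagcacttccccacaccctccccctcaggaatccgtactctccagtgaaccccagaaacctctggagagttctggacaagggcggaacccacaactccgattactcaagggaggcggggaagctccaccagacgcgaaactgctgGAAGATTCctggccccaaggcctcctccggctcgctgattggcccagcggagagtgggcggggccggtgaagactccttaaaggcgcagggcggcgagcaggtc
Hspa1b: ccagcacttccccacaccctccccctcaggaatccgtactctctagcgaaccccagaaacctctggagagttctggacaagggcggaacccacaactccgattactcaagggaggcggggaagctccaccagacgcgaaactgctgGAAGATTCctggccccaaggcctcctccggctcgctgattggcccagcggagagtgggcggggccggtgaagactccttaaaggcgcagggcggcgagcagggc
Hspb1: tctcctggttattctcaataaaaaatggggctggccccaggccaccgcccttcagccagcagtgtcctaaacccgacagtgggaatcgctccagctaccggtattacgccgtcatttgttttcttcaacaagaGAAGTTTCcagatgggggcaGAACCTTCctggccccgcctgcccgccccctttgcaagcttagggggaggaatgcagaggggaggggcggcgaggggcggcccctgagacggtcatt
The full element TGACGTCA, read on both strands, was in a window of 4 of 34 members (Maff, Btg2, Ppp1r15a and Dusp1; 11.8%) and in 1.77% of genes with a window. The core element TGACGT, which the full element contains, was in 9 of 34 members (26.5%) against 7.29% of genes. A gene with several starts had several windows and was counted once if any of them held the letters, for members and for all genes. GAANNTTC was in 5 of 34 members (14.7%; Fosl2, Jun, Hspa1a, Hspa1b and Hspb1) against 7.73% of genes, and Hspb1 held it at 117 and 97 bases before the start. The other arrangement of the heat shock element, TTCNNGAA, was in 1 of 34 members (Egr2, 2.94%), below the 8.11% of genes. The CArG box, the site of serum response factor, was in the windows of Egr2, Zfp36 and Dusp5 (8.82%, against 1.62% of genes). TATAAA was in 11.8% of members against 14.3% of genes. Egr1, Egr3, Ier2, Nfkbiz, Hspa8 and Hsp90aa1 had no window, so none of these letters could be read for them. Bases farther upstream than 250 were not read for any member. The windows of Hspa1a and Hspa1b differed at 3 of 250 bases (C44T, T47C and T249G, counted from 1 at the 5′ end, with the Hspa1a base first). Of the 50-base words of the Hspa1a transcript 58.8% also occur in Hspa1b, but none (0%) of those in the last 500 bases do, which is where 3′ tags lie.

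The summed level of the 40 members was highest in microglia and lowest in KCs. It was 46590 CPM in WT and 41240 CPM in Zeb2KO microglia, 20790 and 21250 CPM in CMs, 17520 and 11710 CPM in SMs, and 12470 and 11300 CPM in AMs. In KCs it was 4108 CPM in WT, 6791 CPM in Zeb2KO and 3202 CPM in WT Nr1h3fl/fl cells. Every library of microglia lay above every library of the other tissues and every KC library below, whereas the AM and SM libraries overlapped. Taken gene by gene, both microglia libraries lay above all libraries of the other tissues for 20 of the 40 members (19.6% of all genes at 20 CPM or more) and below them for 1 (16.2%), and all KC libraries lay below for 19 (3.88%) and above for 0 (5.69%). The member counts include Egr3 in microglia and Mafk in KCs, which did not reach the mean of 20 CPM asked of all genes. The median share of mitochondrial reads per cell ran from 1.01% in WT microglia to 8.34% in WT SMs, and its part in the order was not tested.

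**Figure D1:**
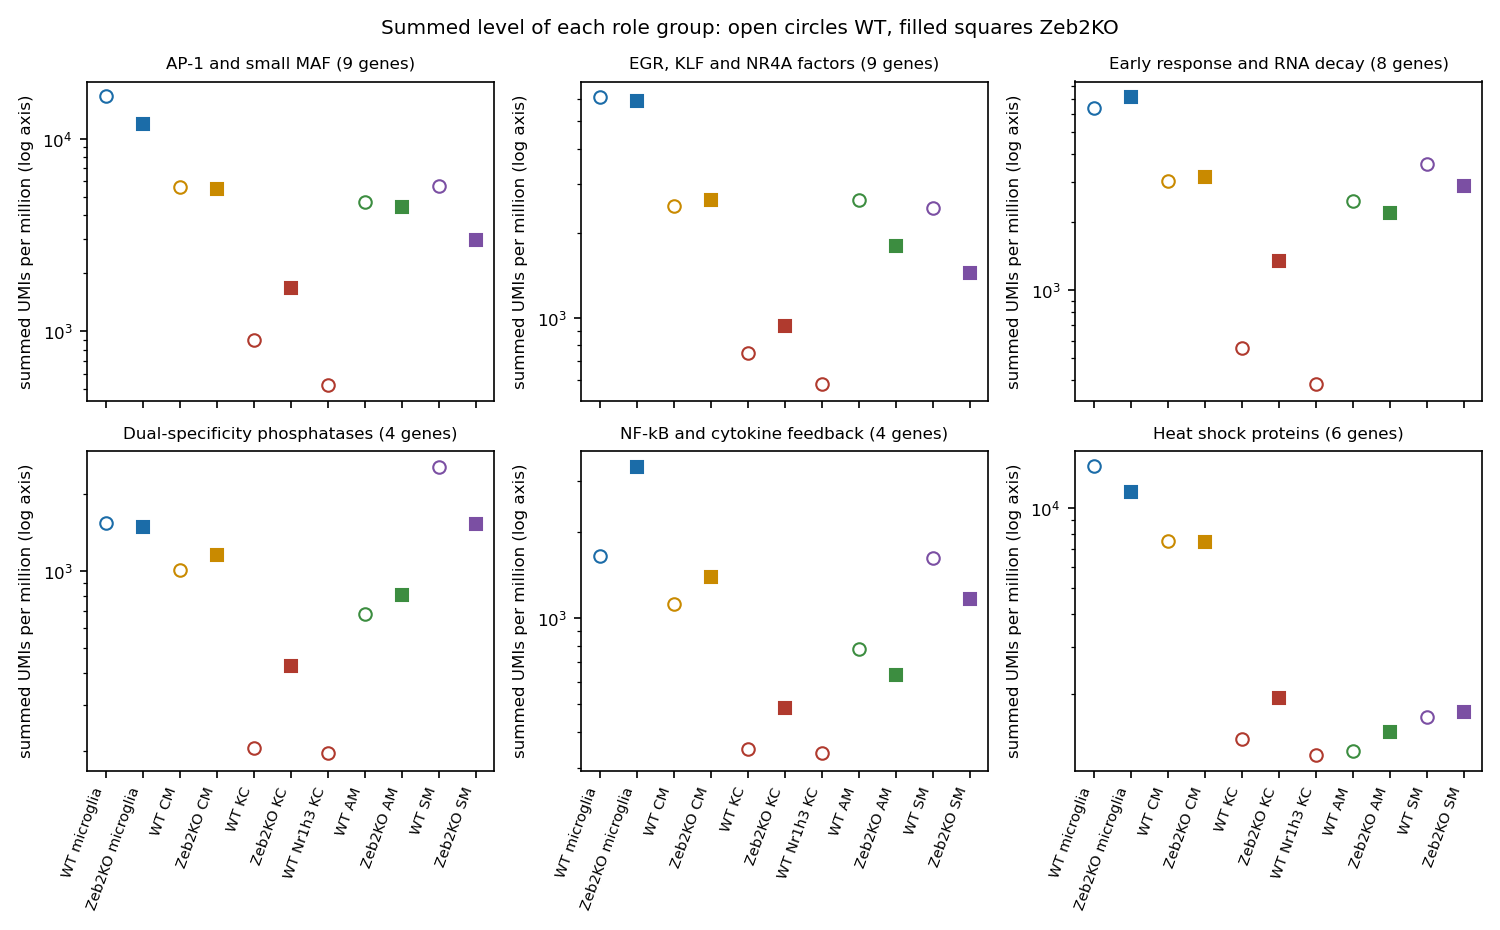
Summed level (CPM, log axis) of each of the 6 role groups in the 11 libraries, by tissue; open circles are CRE-negative (WT) libraries, filled squares Zeb2KO libraries, and bars are 95% Poisson intervals, smaller than the symbols. Heat shock proteins are at 11420 to 14340 in microglia and 7471 to 7534 in CMs, and at 1180 to 1927 in the other tissues.

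In the tissue comparison, both genotypes of a tissue stood for its replicates and each tissue was set against the mean of the other 4 by edgeR's quasi-likelihood test over 14067 genes. In microglia 27 of 40 members were higher and 2 lower, where 26.7% of all genes were higher and 24.7% lower. In KCs 31 of 40 were lower and 0 higher, against 10.1% and 17.3% of all genes, with 36 members and 40.7% of all genes at an unadjusted p under 0.05. In CMs 16 members were higher and 0 lower (20.1% and 9.95% of all genes), in AMs 11 were higher and 14 lower (24.4% and 20.5%), and in SMs 5 were higher and 8 lower (25.7% and 21.3%). The median log2 difference of the members was 1.56 in microglia, 0.77 in CMs, -0.12 in AMs, -0.22 in SMs and -1.85 in KCs. Against tissues read on the same instrument, in AMs 22 members were higher and 2 lower (18.9% and 20.2% of all genes), in KCs 2 and 22 (20.2% and 18.9%), in SMs 3 and 21 (25.6% and 23.7%), in CMs 8 and 0 (22.6% and 14.1%) and in microglia 21 and 4 (23.6% and 24.4%). KCs and AMs were there set against each other alone, so their counts are the same contrast with its sign reversed. The AM balance therefore depended on the reference tissues, and the CM share lay near the background. With 1 library left out, the shares of all genes fell in every tissue, whereas the member counts fell in some fits and not in others. The KC count was 8 without the WT KC library and 20 without the Zeb2KO KC library (1.54% and 2.01% of all genes lower), and the CM count was 4 without either the WT or the Zeb2KO CM library (4.29% and 5% higher). The AM count of higher members was 7 without WT AMs (17.5%) and 12 without Zeb2KO AMs (19.7%). The SM count of higher members was 2 without WT SMs (11.3%) and 5 without Zeb2KO SMs (11.6%), and that of lower members was 8 without WT SMs (7.86%) and 3 without Zeb2KO SMs (9.05%). These p-values measure the spread between these libraries, not between mice of 1 genotype.

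**Figure D2:**
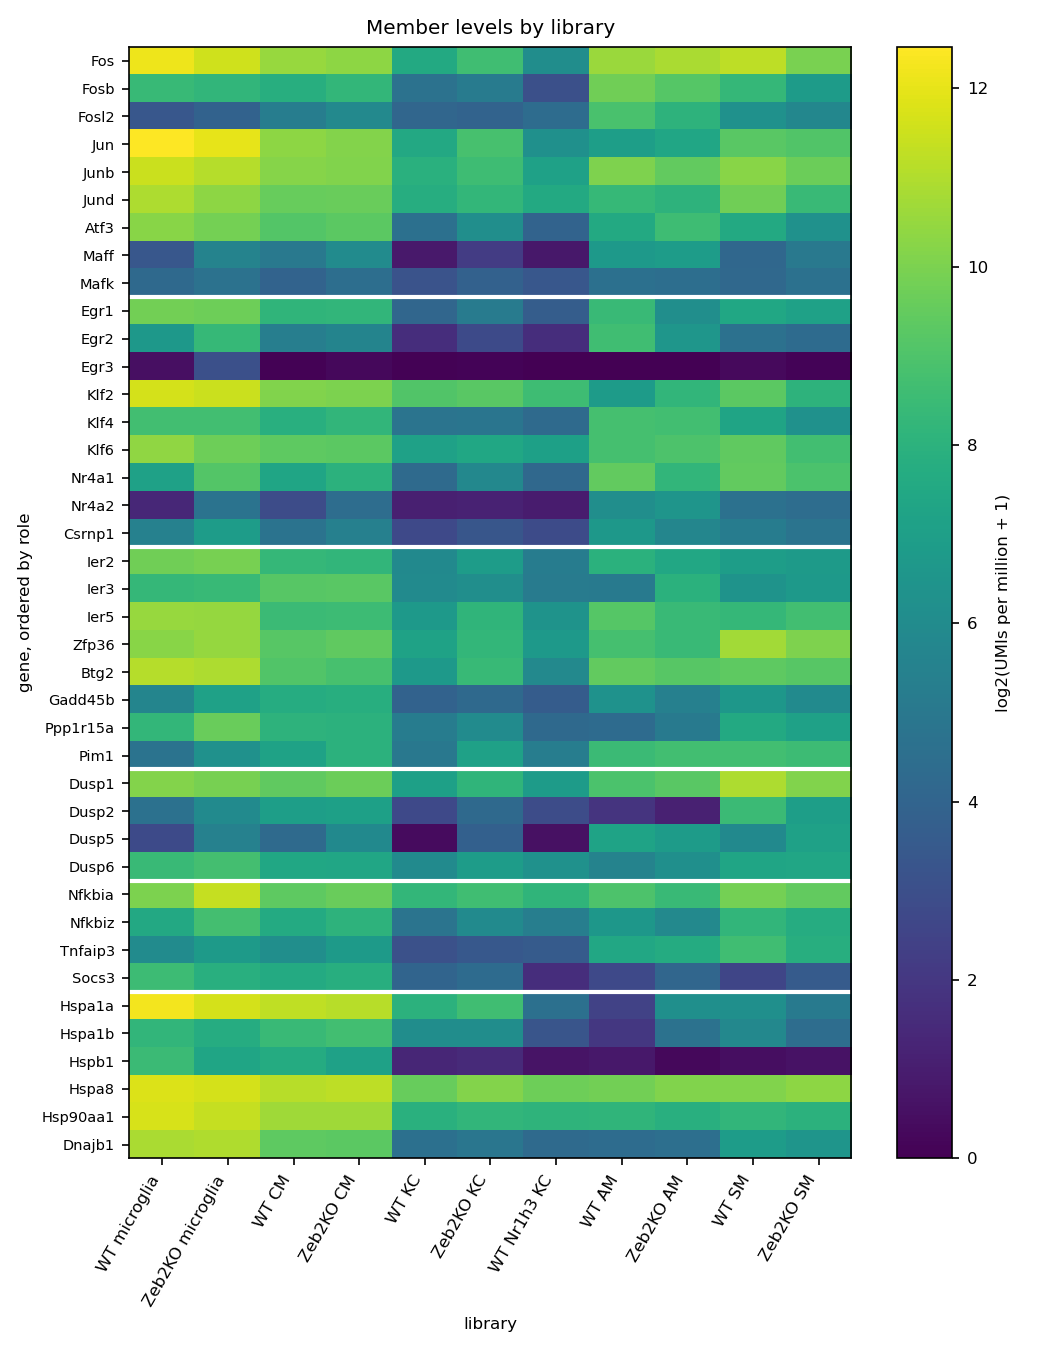
Level of each of the 40 members (rows, by role group) in the 11 libraries (columns), as log2 of CPM plus 1, from dark (low) to bright (high). Most rows are brightest in a microglia library, and most, though not always the same ones, are darkest in a KC library. Fosb, Fosl2, Maff, Egr2, Klf4, Nr4a1, Nr4a2 and Dusp5 are brightest in an AM library.

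Among the AP-1 factors, which pair to bind the same DNA element, Fos was at 4542 and 3055 CPM in WT and Zeb2KO microglia, 1480 and 1315 CPM in CMs, 1516 and 1912 CPM in AMs, and 2354 and 983 CPM in SMs. In WT, Zeb2KO and WT Nr1h3fl/fl KCs it was at 189, 401 and 68.6 CPM, so that no KC library reached any library of another tissue. By edgeR, Fos was higher in microglia (log2 1.71 ± 0.37 SE, adjusted p = 0.008917) and lower in KCs (-2.65 ± 0.50, adjusted p = 0.01112). Jun followed the same order at the top, with 5645 and 4061 CPM in microglia, but AMs held only 125 and 163 CPM of it. Fosb, a partner with a related role, had another order: 855 and 587 CPM in AMs, 339 and 297 CPM in microglia, 318 and 112 CPM in SMs, 224 and 305 CPM in CMs, and 24.6, 35.7 and 7.27 CPM in WT, Zeb2KO and Nr1h3fl/fl KCs. It was higher in AMs by log2 2.30 ± 0.31 (edgeR, adjusted p = 0.001643), as was Fosl2 by log2 3.78 ± 0.23 (edgeR, adjusted p = 8.987e-05). Atf3, a stress-induced repressor, was at 1228 and 932 CPM in microglia, 561 and 642 CPM in CMs, 192 and 388 CPM in AMs, 187 and 78.3 CPM in SMs, and 23.3, 70.9 and 14.5 CPM in the 3 KC libraries. Maff, a small MAF factor, was at 107 and 120 CPM in AMs, 32.3 and 63.0 CPM in CMs, 17.1 and 31.7 CPM in SMs, 9.40 and 47.4 CPM in microglia, and 0.82, 3.71 and 0.76 CPM in KCs. All 9 members of the group were called lower in KCs (10.1% of all genes). In microglia 5 were higher and 1 (Fosl2) lower (26.7% and 24.7%), and in CMs 3 were higher (20.1%). In AMs 4 were higher and 2 lower (24.4% and 20.5%), and in SMs none was called (25.7% and 21.3%). Against tissues read on the same instrument, 7 were lower in KCs (18.9% of all genes), and the same contrast reversed gave 7 higher in AMs. In that setting 4 were higher and 1 lower in microglia (23.6% and 24.4%), 2 higher in CMs (22.6%), and 1 higher and 4 lower in SMs (25.6% and 23.7%). There Fos was no longer called in microglia (log2 1.21), Jun turned to log2 1.10 in KCs and -0.06 in CMs, and Jund to 0.17 in AMs.

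Of the EGR, KLF and NR4A factors, Klf2 and Egr2 were both higher in microglia and had different orders over the other tissues. Klf2, which holds back inflammatory genes, was at 3185 and 2793 CPM in microglia, 1099 and 1028 CPM in CMs, 643 and 261 CPM in SMs, 542, 623 and 386 CPM in WT, Zeb2KO and Nr1h3fl/fl KCs, and 113 and 295 CPM in AMs. It was higher in microglia (log2 2.45 ± 0.41, edgeR adjusted p = 0.003108) and lower in AMs (-2.09 ± 0.55, adjusted p = 0.02095). Egr2 was at 402 CPM in WT AMs and 91.0 CPM in Zeb2KO AMs, 99.1 and 321 CPM in microglia, 39.3 and 47.8 CPM in CMs, 24.0 and 19.8 CPM in SMs, and 2.06, 5.98 and 2.12 CPM in KCs. It was higher in AMs (log2 3.14 ± 0.58, edgeR adjusted p = 0.005559) and microglia (2.57 ± 0.57, adjusted p = 0.009389) and lower in KCs (-4.34 ± 0.85, adjusted p = 0.01249), and its AM libraries spanned the range of its microglia libraries. Nr4a1, a nuclear receptor without a known ligand that is induced by receptor signals, was at 718 and 291 CPM in AMs, 715 and 495 CPM in SMs, 159 and 254 CPM in CMs, 141 and 558 CPM in microglia, and 18.7, 56.1 and 17.3 CPM in KCs. Its relative Nr4a2 was at 71.3 and 90.01 CPM in AMs, 23.9 and 21.1 CPM in SMs, 6.55 and 21.2 CPM in CMs, 1.62 and 25.7 CPM in microglia, and 1.11, 1.29 and 0.92 CPM in KCs. In KCs 7 of the 9 were called lower (10.1% of all genes) and in microglia 7 higher (26.7%). Against tissues read on the same instrument these counts were 7 and 5 (18.9% and 23.6% of all genes). The KC contrast reversed gave 7 higher in AMs, and 5 were lower in SMs (23.7%), in place of 4 (24.4%) and 1 (21.3%). In that setting Klf2 was no longer called lower in AMs (log2 -1.47). Egr3 exceeded 1 CPM only in Zeb2KO microglia (7.15 CPM). Csrnp1 overlaps Cx3cr1 on the same strand, so its level (44.3 and 118 CPM in microglia) is uncertain.

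The early response and RNA decay genes were again highest in microglia and lowest in KCs in sum (6395 and 7170 CPM against 384 to 1344 CPM). Btg2, which slows the cell cycle, was at 2139 and 1978 CPM in microglia, 719 and 588 CPM in AMs, 669 and 607 CPM in SMs, 543 and 464 CPM in CMs, and 107, 339 and 57.2 CPM in WT, Zeb2KO and Nr1h3fl/fl KCs. Ppp1r15a, which restores translation after stress, was at 301 and 788 CPM in microglia, 270 and 259 CPM in CMs, 186 and 140 CPM in SMs, 36.2, 64.4 and 18.3 CPM in KCs, and 19.3 and 32.5 CPM in AMs. AMs and KCs overlapped for it, and it was lower in both (edgeR, log2 -2.78 ± 0.43, adjusted p = 0.002704 in AMs, and -1.60 ± 0.39, adjusted p = 0.02679 in KCs). The direction in KCs turned when they were set against AMs, read on the same instrument (log2 0.94, a difference that was not called). Pim1, a kinase induced by cytokines, ran the other way: 418 and 372 CPM in SMs, 365 and 407 CPM in AMs, 143 and 254 CPM in CMs, 30.6, 140 and 38.3 CPM in KCs, and 25.5 and 77.2 CPM in microglia, where it was lower (log2 -2.39 ± 0.49, edgeR adjusted p = 0.006905). Zfp36 was highest in WT SMs (1708 CPM), while Zeb2KO SMs (1075 CPM) lay below WT and Zeb2KO microglia (1205 and 1449 CPM).

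The summed level of the dual-specificity phosphatases was highest in WT SMs, with 2538 CPM there and 1527 CPM in Zeb2KO SMs against 1486 to 1537 CPM in microglia and 196 to 428 CPM in KCs. Dusp1, which inactivates p38 and JNK, was at 1959 and 1094 CPM in SMs, 1153 and 955 CPM in microglia, 690 and 799 CPM in CMs, 486 and 618 CPM in AMs, and 136, 280 and 113 CPM in WT, Zeb2KO and Nr1h3fl/fl KCs. Zeb2KO SMs thus lay between the microglia libraries, and the contrast for SMs was log2 1.22 ± 0.31 (edgeR, adjusted p = 0.01734). Dusp2 was at 357 and 127 CPM in SMs, 124 and 133 CPM in CMs, 24.4 and 61.5 CPM in microglia, 5.71, 18.2 and 6.41 CPM in KCs, and 2.70 and 1.23 CPM in AMs. It was higher in SMs (log2 3.45 ± 0.52, edgeR adjusted p = 0.002668) and in CMs (2.80 ± 0.50, adjusted p = 0.009172) and lower in AMs (-4.95 ± 0.82, adjusted p = 0.003635). Against tissues read on the same instrument, the calls in SMs for Dusp1 (log2 0.53) and Dusp2 and in CMs for Dusp2 (0.70) did not hold. Dusp5, an ERK phosphatase of the nucleus, was at 147 and 114 CPM in AMs, 59.1 and 139 CPM in SMs, 19.0 and 58.5 CPM in CMs, 5.999 and 43.8 CPM in microglia, and 0.29, 13.0 and 0.49 CPM in KCs. Outside AMs its Zeb2KO library was the higher one in every tissue.

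Among the genes of NF-kB and cytokine feedback, Nfkbia, which encodes the inhibitor that holds NF-kB in the cytoplasm, was at 1031 CPM in WT and 2603 CPM in Zeb2KO microglia, 919 and 715 CPM in SMs, 655 and 788 CPM in CMs, 504 and 354 CPM in AMs, and 300, 393 and 285 CPM in WT, Zeb2KO and Nr1h3fl/fl KCs. The WT microglia library was close to the WT SM library, and the contrast for microglia was log2 1.56 ± 0.30 (edgeR, adjusted p = 0.005604). Nfkbiz, an inducible co-factor of NF-kB, was at 180 and 429 CPM in microglia, 299 and 210 CPM in SMs, 193 and 262 CPM in CMs, 95.4 and 57.5 CPM in AMs, and 27.1, 61.5 and 39.9 CPM in KCs. Socs3, which blocks IL-6 and related signals, split the tissues into high and low: 367 and 228 CPM in microglia and 197 and 226 CPM in CMs, against 15, 19.8 and 2.06 CPM in KCs, 5.76 and 16.3 CPM in AMs, and 5.09 and 11.1 CPM in SMs. It was higher in microglia (log2 3.58 ± 0.35, edgeR adjusted p = 0.0004877) and CMs (3.30 ± 0.35, adjusted p = 0.001585). Tnfaip3 was higher in SMs (log2 2.14 ± 0.26, edgeR adjusted p = 0.001271), with 392 and 227 CPM.

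All 6 heat shock proteins were called higher in microglia (26.7% of all genes) and in CMs (20.1%). All 6 were lower in AMs (20.5%), with 5 lower in SMs (21.3%) and 4 in KCs (10.1%). Against tissues read on the same instrument, 5 were higher in microglia (23.6% of all genes), 3 higher in CMs (22.6%) and 6 lower in SMs (23.7%). AMs and KCs were then set against each other, and 1 was lower in AMs (Hspb1, log2 -1.97), as were 20.2% of all genes. The call for Hspa1a in CMs (log2 2.69) and the calls in KCs did not hold there, with log2 1.97 for Hspb1, 0.28 for Dnajb1, 0.05 for Hsp90aa1 and -0.08 for Hspa8. Hspa1a, the inducible HSP70, was at 4859 and 3186 CPM in microglia and 2476 and 2238 CPM in CMs, against 258, 398 and 23.6 CPM in WT, Zeb2KO and Nr1h3fl/fl KCs, 73.0 and 34.2 CPM in SMs, and 4.52 and 71.7 CPM in AMs. It was higher in microglia (log2 4.22 ± 0.74, edgeR adjusted p = 0.003749) and CMs (3.64 ± 0.73, adjusted p = 0.0133), while the contrast for KCs was -0.15 ± 0.85 (adjusted p = 0.9368). Hspb1, the small chaperone HSP27, was at 357 and 158 CPM in microglia and 200 and 137 CPM in CMs, and at 1.84 CPM or less in each of the other 7 libraries. Its difference was log2 6.31 ± 0.25 in microglia (edgeR, adjusted p = 4.217e-05) and 6.03 ± 0.25 in CMs (adjusted p = 0.000115). Dnajb1, the HSP40 partner of HSP70, was at 1887 and 1997 CPM in microglia, 665 and 647 CPM in CMs and 18.6 to 116 CPM elsewhere. Hspa8, the constitutive HSP70, had the narrowest range of the 6, with 3586 and 3238 CPM in microglia, 2209 and 2368 CPM in CMs, 1100 and 1313 CPM in SMs, 901 and 1081 CPM in AMs, and 753, 1140 and 851 CPM in KCs.

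The paper describes Zeb2+/- cells, presumed so in spleen and colon, in CRE-carrying mice of every organ but the brain. Ratios of whole Zeb2KO libraries therefore average over such cells and Zeb2-/- cells. Deletion of Zeb2 was first asked for a shift common to the 5 tissues, with tissue as a block in edgeR. No member passed (0 of 40, with 6 at an unadjusted p under 0.05, and a lowest adjusted p of 0.2259 for Mafk). No gene of the 14067 tested passed either (0% higher and 0% lower, with 1580 at an unadjusted p under 0.05). DESeq2 called 244 genes higher and 118 lower, among them 3 members, all higher: Maff (log2 1.32 ± 0.32, adjusted p = 0.004413), Dusp5 (2.06 ± 0.59, adjusted p = 0.02347) and Mafk (0.49 ± 0.15, adjusted p = 0.04539). The members' median log2 difference in edgeR was 0.25, against -0.01 over all genes, and it was 0.03 without the KC pair.

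Within a tissue there was 1 library per genotype, so the values that follow have no replicate check, and a gene was called at a 2-fold difference in CPM plus 1. In KCs, 15 of 38 members were higher in Zeb2KO and 0 lower, where 3.17% of all genes were higher and 0.827% lower, and 37 of 38 had a ratio above 0, as did 52.9% of all genes. Dusp5 (log2 3.44), Pim1 (2.16), Btg2 (1.65) and Atf3 (1.56) led, and Fos was higher by log2 1.08. Dusp5 was at only 0.29 CPM in WT KCs, so the size of its ratio rests largely on the 1 CPM added. Of the members called, Maff (0.82 and 3.71 CPM), Egr2 (2.06 and 5.98 CPM), Dusp2 (5.71 and 18.2 CPM) and Dusp5 (0.29 and 13.0 CPM) were under 20 CPM in both libraries. These members passed the mean of 20 CPM only through other tissues. The early response genes went in sum from 555 to 1344 CPM and the phosphatases from 204 to 428 CPM, whereas the heat shock proteins differed by log2 0.52. The 2 CRE-negative KC libraries also differed: Nr1h3fl/fl KCs were at least 2-fold lower than Zeb2fl/fl KCs for 6 members (Hspa1a, Hspa1b, Socs3, Fosb, Fos and Jun) and higher for 0, against 1.28% and 0.396% of all genes. Hspa1a differed by log2 -3.40 between these CRE-negative libraries, and Fos by -1.45, more than between Zeb2KO and WT KCs. Dusp5, Pim1 and Btg2 differed by log2 0.21, 0.32 and -0.89 between them. Socs3 was under 20 CPM in both CRE-negative libraries (15 CPM in Zeb2fl/fl and 2.06 CPM in Nr1h3fl/fl KCs). Erythroid reads were at 214 CPM in WT, 5.74 CPM in Zeb2KO and 77.35 CPM in Nr1h3fl/fl KCs. Their part in these differences was not tested.

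In microglia, 12 of 38 members were higher in Zeb2KO and 1 (Hspb1) lower, against 4.41% and 3.5% of all genes. The higher ones were Nr4a2 (log2 3.35), Dusp5 (2.68), Maff (2.22), Nr4a1 (1.98), Egr2 (1.69), Pim1 (1.56), Gadd45b, Csrnp1, Ppp1r15a, Nfkbia (1.33), Dusp2 and Nfkbiz (1.25). Other members differed the other way by less than 2-fold, Fos by log2 -0.57, Jun by -0.47 and Hspa1a by -0.61, so that the sum of the 40 differed by -0.18. NF-kB and cytokine feedback genes went in sum from 1642 to 3368 CPM while AP-1 factors went from 16560 to 11880 CPM. WT microglia also held more haemoglobin and other erythroid reads (609 CPM, against 39.9 CPM in Zeb2KO microglia); their part in these differences was not tested.

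In CMs only Dusp5 (log2 1.57) and Nr4a2 (1.55) passed 2-fold, both higher in Zeb2KO (2 of 38 higher and 0 lower, against 1.15% and 0.517% of all genes), and the summed level differed by log2 0.03. Only 23.04% of the Zeb2KO CMs lay in clusters whose share of cells was at least 9 times that in WT, described below. In AMs 6 members were higher and 3 lower in Zeb2KO (4.64% and 6.05% of all genes). Hspa1a (log2 3.72), Ier3 (2.88), Hspa1b (2.68), Klf2 (1.37), Socs3 (1.35) and Atf3 (1.01) were higher, and Egr1 (-2.25), Egr2 (-2.13) and Nr4a1 (-1.30) lower. Socs3 was under 20 CPM in both AM libraries (5.76 and 16.3 CPM). The median of all genes in the AM pair was -0.25, and with TMM scaling the summed level of the members moved from -0.14 to 0.13, so that its direction depended on the scaling.

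In SMs most members were lower in Zeb2KO. Of 38 members 8 were lower in Zeb2KO and 1 (Dusp5, log2 1.22) higher, against 0.793% and 2.76% of all genes, and the ratio was above 0 for 8 of 38 members and 49.1% of all genes. Fosb (log2 -1.50), Dusp2 (-1.49), Hspa1b (-1.35), Jund (-1.33), Klf2 (-1.30), Fos (-1.26), Atf3 (-1.25) and Hspa1a (-1.07) were the lower ones, and AP-1 factors went from 5678 to 2970 CPM. Dusp5 was thus 2-fold higher in Zeb2KO macs of 4 tissues, in KCs from only 0.29 CPM in WT, and at log2 -0.36 in AMs. The difference between tissues in these ratios was not tested.

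**Figure D3:**
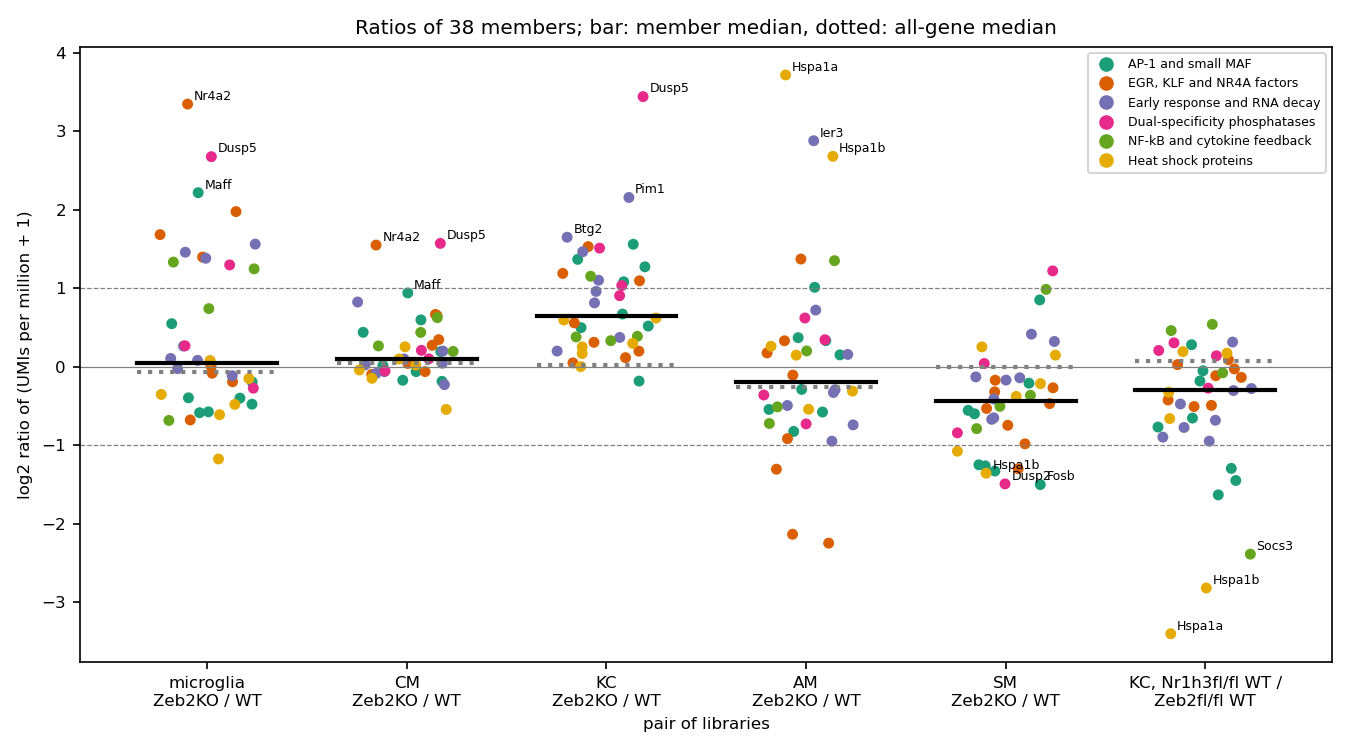
Log2 ratio (CPM plus 1) of the 38 members in each pair: Zeb2KO over WT in the 5 tissues and, last, WT Nr1h3fl/fl over WT Zeb2fl/fl KCs. Solid bars are the members' medians (0.65 in KCs, 0.10 in CMs, 0.04 in microglia, -0.20 in AMs, -0.44 in SMs and -0.29 between the CRE-negative KC libraries), dotted bars the medians of all genes, and dashed lines 2-fold.

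The members also differed from cell to cell within a library. After each cell was thinned to 1500 UMIs, the 10th, 50th and 90th percentiles of its summed member UMIs were 11, 43 and 154 in WT microglia and 10, 57 and 121 in Zeb2KO microglia. They were 9, 27 and 65 in WT CMs, 9, 27 and 69 in Zeb2KO CMs, 6.3, 23 and 55 in WT SMs, and 5, 15 and 36 in Zeb2KO SMs. AMs were narrow, at 10, 18 and 30 in WT and 8, 16 and 27 in Zeb2KO, and KCs low, at 1, 5 and 11 in WT, 3, 8 and 20 in Zeb2KO, and 2, 4 and 9 in Nr1h3fl/fl. The variance over the mean, which is 1 for counting error alone, was 49.6 and 31.9 in microglia, 16.5 and 17.7 in CMs, 14.3 and 9.28 in SMs, 3.93 and 3.98 in AMs, and 3.92, 6.74 and 1.94 in KCs. Cells with fewer than 1500 UMIs, 839 in WT SMs, 541 in Zeb2KO SMs and 28 in WT AMs, were left out.

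**Figure D4:**
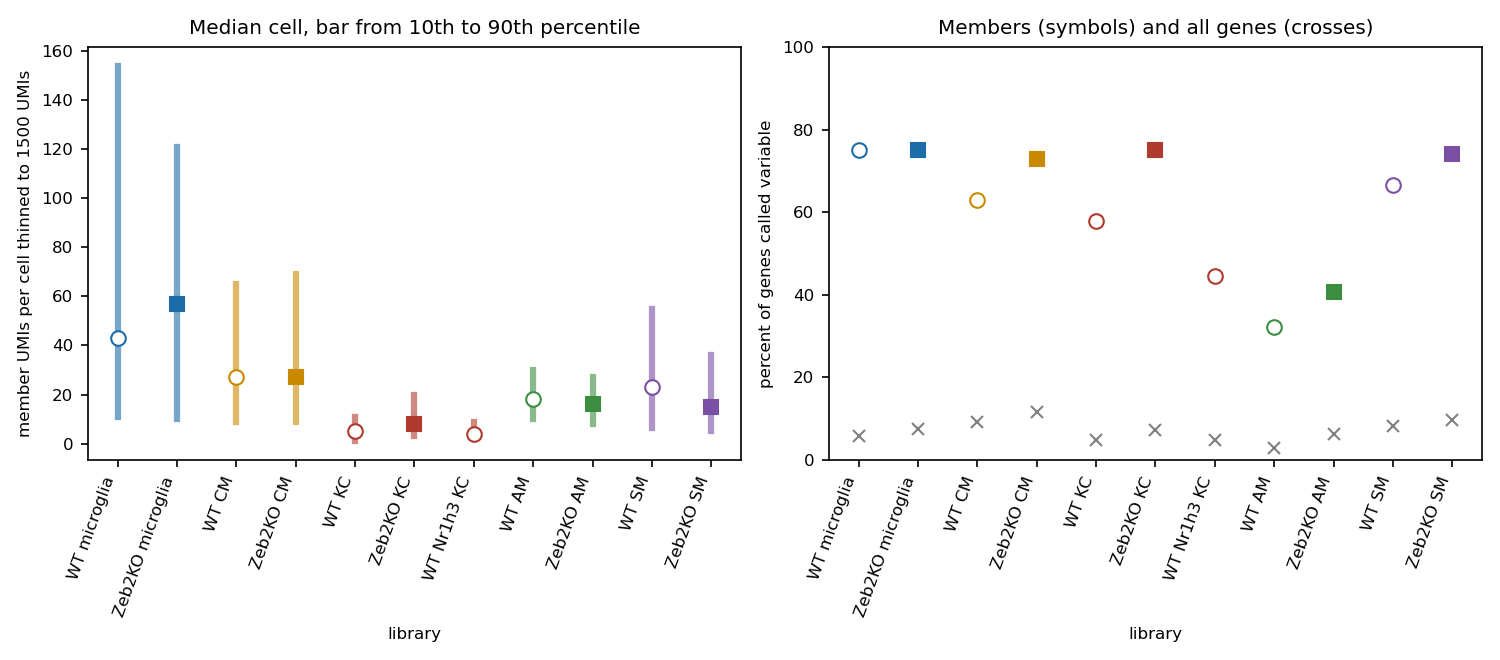
Left, median (point) and 10th to 90th percentile (line) of the summed member UMIs per cell after thinning to 1500 UMIs, by library. Right, percent of members (points) and of all genes (crosses) whose squared coefficient of variation beyond Poisson is 1 or more. WT microglia span 11 to 154 UMIs and WT AMs 10 to 30.

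A gene was called variable when its squared coefficient of variation beyond counting error reached 1 at a thinned mean of at least 0.05 UMIs. This held for 24 of 32 measurable members in WT and 27 of 36 in Zeb2KO microglia, against 5.84% and 7.51% of all genes, and for 22 of 35 and 27 of 37 in CMs (9.14% and 11.5%). In SMs it held for 22 of 33 and 23 of 31 (8.26% and 9.69%), and in WT, Zeb2KO and Nr1h3fl/fl KCs for 11 of 19, 18 of 24 and 8 of 18 (4.95%, 7.19% and 4.8%). AMs had 10 of 31 and 13 of 32 (2.85% and 6.18%), and Fos in AMs was even, at 0.48 and 0.33, against 1.45 and 1.58 in microglia. Hspa8 stayed below 1 in every library, with 0.14 to 0.71, whereas Hspb1 reached 14.6 and 18.2 in microglia. Of all measurable members and libraries, the highest value was that of Hspa1a in Zeb2KO AMs, with 128, at a thinned mean of 0.10 UMIs.

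Hspa1a was highest in a cluster of 97 Zeb2KO AMs (1.55% of the library), numbered 9 in a clustering made without the members. There Hspa1a was at 1661 CPM, Hspa1b at 843 CPM, Hspa8 at 2253 CPM and Hsp90aa1 at 1082 CPM. In the other listed Zeb2KO AM clusters Hspa1a was at 32.3 to 116 CPM and in the WT AM clusters at 0 to 6.65 CPM. Hspa1b was at 6.87 to 35.8 CPM in the other listed Zeb2KO AM clusters and at 0 to 6.57 CPM in the WT AM clusters. In the Zeb2KO AM clusters whose share of cells was at least 9 times that in WT, it was at 10.0 CPM (log2 1.43 to WT), less than its log2 2.68 in the whole library. The 76 WT AMs of the same cluster 9 were listed at 0 for Hspa1a.

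The Spearman correlation of the thinned AP-1 and heat shock sums was 0.77 and 0.62 in WT and Zeb2KO microglia and 0.63 and 0.66 in CMs. It was 0.05 and 0.00 in SMs, 0.04 and 0.06 in AMs, and 0.17, 0.23 and 0.02 in WT, Zeb2KO and Nr1h3fl/fl KCs. In SMs the AP-1 sum varied with the phosphatase sum (0.73 and 0.57) and the early response sum (0.73 and 0.62). Heat shock counts were sparse in SMs, KCs and AMs, where weak correlations are no finding, and the sums share a cell's depth, with which the 40 members correlated at -0.20 to 0.28. The correlation with the percent of mitochondrial UMIs was -0.31 to 0.02.

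**Figure D5:**
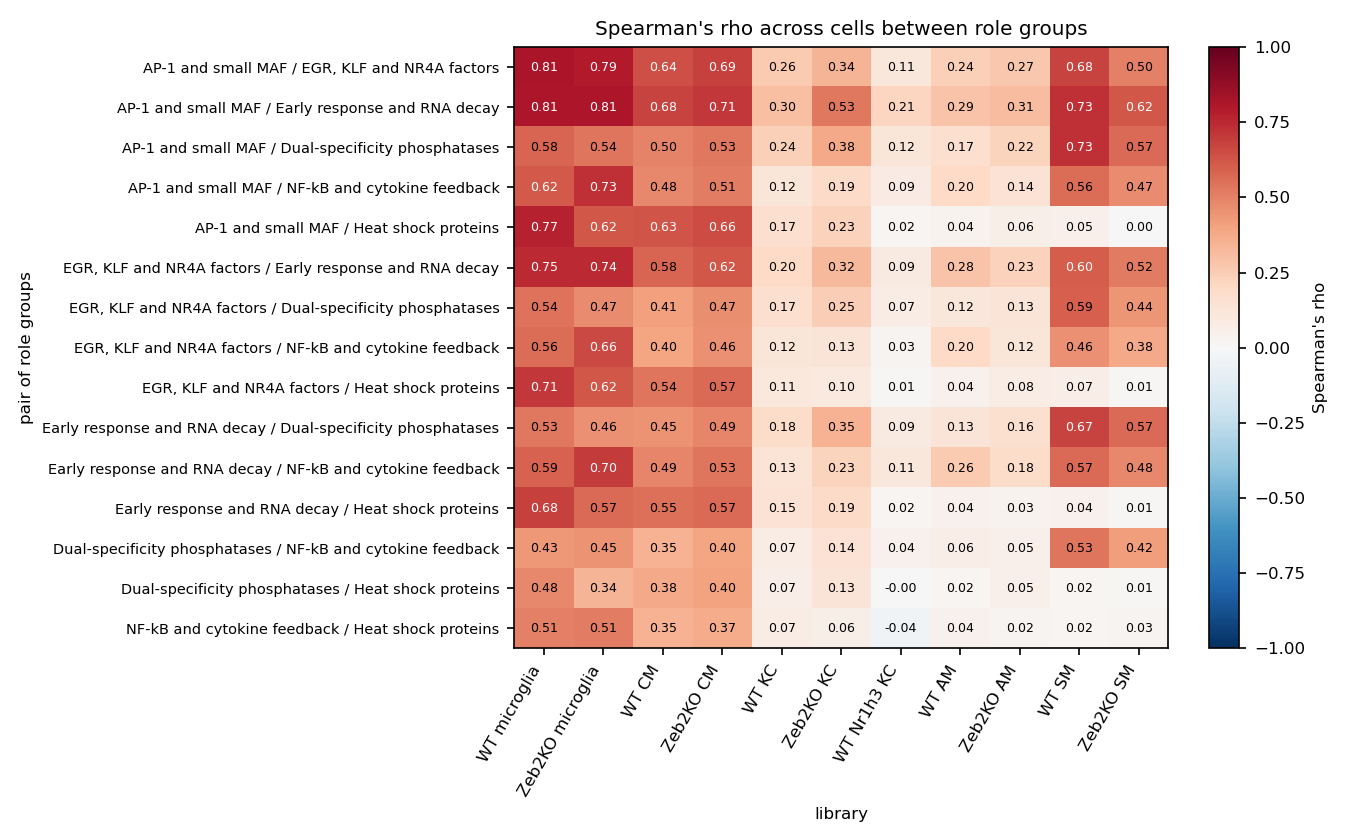
Spearman correlation across cells, after thinning to 1500 UMIs, for the 15 pairs of role groups (rows) in the 11 libraries (columns). The AP-1 and heat shock pair is at 0.62 to 0.77 in the microglia and CM libraries and at 0.00 to 0.23 in the others.

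Clusters of 50 or more cells, made without the members, differed 1.73-fold (WT AMs) to 5.87-fold (Zeb2KO microglia) in the summed member level. In WT microglia, cluster 0 (1753 cells, 61.9%) was at 21350 CPM and cluster 3 (948 cells, 33.5%) at 85160 CPM. Fos was at 1618 CPM in the first and 9033 CPM in the second, and Klf2 at 1121 and 6379 CPM. Erythroid reads were at 64.9 and 1503 CPM in the same clusters, and their part in the difference was not tested. In Zeb2KO microglia, cluster 2 (31.8% of cells) was at 12080 CPM, cluster 1 (35.2%) at 50700 CPM and cluster 4 (16.1%) at 70860 CPM, with erythroid reads at 38.6 to 42.3 CPM in all of them. Dusp5 in these Zeb2KO clusters was at 5.79, 40.8 and 113 CPM. Cell clusters with a high and a low member level were thus present in both genotypes, although different clusters made up the libraries.

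Zeb2KO libraries held clusters whose share of cells was at least 9 times that in WT, and these were compared with the other cells of the same library, which had the same digestion. Cells of such clusters need not lack Zeb2. In KCs they include cluster 5, led by genes such as Cx3cr1 and Ccr2, which the paper describes in putative monocyte-derived Zeb2+/- KCs. In KCs the clusters apart (2958 cells) were at 7350 CPM and the other 944 cells at 5208 CPM, both above the 4108 CPM of WT KCs. Fos was at 451 and 262 CPM, Btg2 at 401 and 162 CPM, and Dusp5 at 16.3 and 3.74 CPM in the 2 groups of Zeb2KO KCs. In CMs the clusters apart (889 cells) were at 28130 CPM and the other 2969 cells at 19230 CPM, with Dusp5 at 158 and 29.2 CPM and Pim1 at 682 and 129 CPM. With a limit of 4 times in place of 9, the CM clusters apart were at log2 -0.07 to WT in place of 0.44, so their direction depended on the limit. In SMs the clusters apart were at 12410 CPM and the other cells at 9150 CPM, both below the 17520 CPM of WT SMs. In AMs the values were 11410 and 10180 CPM, below the 12470 CPM of WT. TMM scaling, which turned the summed AM ratio from -0.14 to 0.13, was not applied to these clusters. The AM direction is therefore uncertain. In microglia the clusters apart (3035 cells) were at 41810 CPM and the other 208 cells at 33380 CPM, both below the 46590 CPM of WT. That WT sum joins clusters at 21350 CPM (61.9% of cells) and 85160 CPM (33.5%). The median thinned cell was at 43 member UMIs in WT and 57 in Zeb2KO microglia.

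Further genes of the same kinds, from lists of their own, were tested in the same fits. Of 52 other immediate early genes, 6 were higher and 22 lower in KCs, 22 higher and 1 lower in CMs, 16 and 11 in microglia, 19 and 13 in AMs, and 11 and 8 in SMs. Over all genes the shares higher and lower were 17.3% and 10.1% in KCs, 20.1% and 9.95% in CMs, 26.7% and 24.7% in microglia, 24.4% and 20.5% in AMs, and 25.7% and 21.3% in SMs, so that several of these counts lay near the background. Of 25 other heat shock genes, 16 were higher and 0 lower in CMs, 13 and 5 in microglia, 0 and 8 in KCs, 2 and 7 in AMs, and 5 and 11 in SMs. Of 18 genes of the unfolded protein response of the endoplasmic reticulum, 12 were higher and 0 lower in microglia, 7 and 0 in CMs, 0 and 7 in KCs, 3 and 7 in AMs, and 2 and 6 in SMs. Within tissues, 8 of 36 other immediate early genes were 2-fold higher and 0 lower in Zeb2KO microglia (4.41% and 3.5% of all genes), led by Bhlhe40 (log2 3.44), a clock-linked repressor, and the cytokine Tnf (3.43). In KCs 6 were higher and 1 lower, led by the chemokines Ccl3 and Ccl4 (2.36 each, with 3.17% and 0.827% of all genes), in AMs 10 were higher and 8 lower, led by Gem (4.38) and Id2 (2.55) against Tnf (-2.10) and Cebpb (-2.02) (4.64% and 6.05% of all genes), in CMs 3 were higher and 1 lower (1.15% and 0.517%), and in SMs 1 was higher (Ccl3, 1.17) and 1 lower (Phlda1, -1.75), near the 2.76% and 0.793% of all genes. In AMs 1 of 20 other heat shock genes (St13) and 1 of 17 unfolded protein response genes (Hsp90b1) were 2-fold lower in Zeb2KO, and in the other 4 tissues 0 of either list passed 2-fold.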

How the data were processed

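The authors aligned 3′ droplet libraries to the mouse genome (mm10) with Cell Ranger, and the deposited tables hold raw UMI counts per gene and cell, with 1 library per tissue and genotype. Barcodes within 3 median absolute deviations of the library median in log UMIs, log genes and, upwards, percent mitochondrial UMIs were kept, and clusters of other cell types were left out (0% to 21.96% of kept cells). Clusters came from scanpy 1.11.5 (leiden, resolution 0.8, 2000 variable genes without the members). Scrublet called at most 0.0655% of the cells of a library doublets and so was not used as a filter. A run without the 5% of cells with the highest score was an alternative.

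Counts were summed per library and tested with edgeR 4.0.16 (TMM factors, quasi-likelihood test, Benjamini-Hochberg adjusted p under 0.05 over all genes), with DESeq2 1.42.0 as an alternative, in R 4.3.3. Spread was computed in Python 3.11.15 with numpy 2.4.6. Levels are CPM of the UMI total. They are not compared between genes. The scripts were tested on simulated data. With no repeat library per group, p-values measure only the spread between these libraries.

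The members and lists were chosen with earlier results of these data known. Every library's value is given for the member of each role group with the highest mean and the widest range, and for members past 2-fold in at least 2 tissues in 1 direction. Other members, clusters and cluster values are named after their values were seen. The 4 clusters of mixed marker genes were left out in an alternative added after the data were seen.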

Additional observations from a re-analysis of the deposited data

Results flagged for a closer look

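For 9 members, 2-fold calls went in opposite directions in the Zeb2KO over WT ratio of 2 tissues. How many of all genes did the same was not counted, so the number is not a trait of the members. With 1 library per group the difference between tissues was not tested for any of them. Between KCs and SMs the log2 ratios differed by 2.34 for Fos, by 2.81 for Atf3 and by 3.0 for Dusp2, each higher in Zeb2KO KCs and lower in Zeb2KO SMs. Between AMs and SMs they differed by 2.67 for Klf2, by 4.79 for Hspa1a and by 4.04 for Hspa1b, each higher in Zeb2KO AMs and lower in Zeb2KO SMs. Between KCs and AMs the difference was 3.34 for Egr1, higher in Zeb2KO KCs and lower in Zeb2KO AMs. Between microglia and AMs it was 3.82 for Egr2 and 3.28 for Nr4a1, each higher in Zeb2KO microglia and lower in Zeb2KO AMs. Hspa1a was at 1661 CPM in the cluster of 97 Zeb2KO AMs and at 32.3 to 116 CPM in the other listed Zeb2KO AM clusters, above the 0 to 6.65 CPM of the WT AM clusters.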

How the results depend on the processing

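Of 37 main values recomputed under 220 alternatives, 37 alternatives moved one, and of 1026 repeats of the 114 member calls between tissues 884 kept direction and call, 133 lost the call and 9 turned. DESeq2 called 3 of 40 members higher for the common Zeb2KO shift (244 of 14067 genes) and 13 of 40 lower in SMs (3097 of 14067 genes). Leaving out either library of a tissue, where the shares of all genes fell, gave 4 to 4 higher members in CMs, 8 to 20 lower in KCs, 7 to 12 higher in AMs, 2 to 5 higher and 3 to 8 lower in SMs, and 20 to 22 higher in microglia. Against tissues read on the same instrument (KCs against AMs, and microglia, CMs and SMs among themselves), 8 members were higher in CMs (22.6% of all genes), 22 higher and 2 lower in AMs (18.9% and 20.2%), and 3 higher and 21 lower in SMs (25.6% and 23.7%). Directions turned there for Jun (log2 -0.06 in CMs, 1.10 in KCs), Ppp1r15a (0.94), Dusp6 (0.54), Hspb1 (1.97), Hsp90aa1 (0.05) and Dnajb1 (0.28) in KCs, and Jund (0.17) and Hspa8 (0.08) in AMs. The reference tissues differ there by construction. For the summed level (log2 Zeb2KO over WT), TMM factors gave 0.69 in KCs, 0.13 in AMs, 0.02 in CMs, -0.09 in microglia, -0.56 in SMs and -0.46 between the CRE-negative KC libraries. Without the most counted member, Hspa8, it was 0.02 in CMs, 0.75 in KCs, -0.18 in AMs, -0.66 in SMs and -0.51 between CRE-negative KCs. With all barcodes it was 0.04 in CMs, 0.68 in KCs and -0.53 in SMs, with other cell types left in 0.04, 0.69 and -0.54, without the highest Scrublet scores 0.02 in CMs, and without the clusters of mixed genes -0.19 in microglia and -0.67 in SMs. Thinned to 1000 UMIs, 5 of 14 measurable members were variable in Nr1h3fl/fl KCs (116 of 2705 genes). The main setting gave 8 of 18 members there (182 of 3795 genes). With a limit of 4 times, clusters apart were at -0.18 to WT in microglia and -0.07 in CMs. The common Zeb2KO shift was fitted with tissue as a block, pairing the WT and Zeb2KO library of each tissue, and the labels give no replicate numbers for any other pairing. The cause of these shifts was not tested unless stated. Depth limits Maff, Dusp5, Egr3 and Nr4a2 in KCs, which were at 0.0411 to 1.11 CPM in WT KCs.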
